A study of Mus musculus with 24 samples.

Results

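The genes described here encode 9 proteins that the liver secretes as metabolic signals: Enho, Fgf21, Gdf15, Angptl4, Angptl8, Inhbe, Fst, Lect2 and Fetub. They were picked by gene symbol, and each symbol matched 1 of the 41388 genes counted in mouse liver. All 9 passed the limit on low counts, which left 13052 genes for testing. Liver RNA was sequenced from male C57BL/6J mice that lack lipin 1 in adipocytes (Adn-Lpin1-/-) and from their WT littermates. Adn-Lpin1-/- mice carried floxed Lpin1 alleles and Cre driven by the adiponectin promoter, so the gene was deleted in adipocytes and not in the liver that was sampled. WT littermates carried the floxed alleles without Cre. At 8 weeks of age the mice were given a low-fat diet (LFD, 10% fat) or a high-fat diet (HFD, 60% fat), for 16 weeks according to the sample labels, although the methods of the study give a shorter time. All mice were fasted for 4 h before sacrifice. Each of the 4 groups had 5 single-mouse libraries, and 4 further libraries of pooled RNA were left out of the tests. The comparisons ask whether liver RNA of these 9 genes differed with the loss of lipin 1 in adipose tissue on either diet. Secreted protein is not measured by these libraries.

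Hepatokines are proteins that hepatocytes release into the blood and that act on adipose tissue, muscle, brain or the liver itself. Their genes respond to fasting and feeding, to fatty acids through nuclear receptors such as PPARα, and to cell stress through the transcription factors ATF4 and CHOP. Fgf21, Gdf15, Inhbe and Angptl8 are genes for which such stress or nutrient control is known, whereas Lect2 and Fetub are made at high levels as part of the normal hepatocyte secretory programme.

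RefSeq promoter windows of 300 bases on GRCm38.p6 were held for 6 of the 9 genes. They were searched on both strands for TGATGNAA, the core of the C/EBP-ATF composite element that stress-responsive genes share. Of the 8 windows of these 6 genes, 3 held a match, those of Fgf21, Angptl8 and Inhbe, against 3.97% of all 32851 promoter windows. Those 3 windows are shown because the genes share this element. Their measured values are given below, and differences between these genes were not tested. Bases are printed in the direction of the gene, and capitals mark the match. The windows lie at chr7:45615441-45615740 on the minus strand for Fgf21, chr9:21835260-21835559 on the plus strand for Angptl8 and chr10:127351799-127352098 on the minus strand for Inhbe.
Fgf21: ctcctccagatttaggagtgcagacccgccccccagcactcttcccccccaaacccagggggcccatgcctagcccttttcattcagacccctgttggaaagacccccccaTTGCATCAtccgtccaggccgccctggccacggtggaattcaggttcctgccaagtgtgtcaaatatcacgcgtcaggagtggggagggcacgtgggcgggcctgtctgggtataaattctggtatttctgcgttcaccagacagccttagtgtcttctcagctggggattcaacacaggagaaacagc
Angptl8: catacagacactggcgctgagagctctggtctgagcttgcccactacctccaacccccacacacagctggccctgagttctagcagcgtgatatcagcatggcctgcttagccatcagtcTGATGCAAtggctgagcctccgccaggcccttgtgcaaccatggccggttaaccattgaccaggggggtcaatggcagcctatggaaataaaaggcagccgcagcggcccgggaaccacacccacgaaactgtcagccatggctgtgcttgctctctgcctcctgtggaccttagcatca
Inhbe: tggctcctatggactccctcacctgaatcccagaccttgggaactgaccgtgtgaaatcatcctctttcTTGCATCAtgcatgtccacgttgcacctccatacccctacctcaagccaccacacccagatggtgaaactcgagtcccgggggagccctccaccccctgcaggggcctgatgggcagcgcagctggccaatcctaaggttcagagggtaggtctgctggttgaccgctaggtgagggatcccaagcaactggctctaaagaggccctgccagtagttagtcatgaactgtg
The first base of the match lies at position -139 from the RefSeq start site in Fgf21, -130 in Angptl8 and -181 in Inhbe. The Inhbe window lies wholly upstream of the counted gene, which starts at 127351772 on the minus strand. Its RefSeq start site is therefore not the start of the counted gene. Of the other motifs searched, the E-box CACGTG occurred in Fgf21 at -50 and in a Gdf15 window at -83 (7.15% of all windows). A TATA box, TATAAA, occurred in Fgf21 at -28 and in Fetub at -31 (13.6%), and the nuclear receptor half-site AGGTCA in the other Gdf15 window at -55 (16.3%). None of these matches overlapped another. A match describes the letters in a window and is not a measured binding site.

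Total counts per mouse ranged from 36260187 to 81072794, and the WT LFD libraries were the shallowest. The median total of Adn-Lpin1-/- LFD was 1.30 times that of WT LFD, that of WT HFD 1.4 times and that of Adn-Lpin1-/- HFD 1.53 times. Liver Lpin1 ranged from 119.7 to 1195 CPM (counts scaled to library size) over the 20 mice and did not pass the test between genotypes on either diet, which cannot check labels of an adipocyte deletion. Against the liver label, 8 hepatocyte markers were checked and all were expressed in every group. Their summed level was 102724 to 111019 CPM in WT LFD and 92679 to 119353 in WT HFD mice, and 75446 to 100190 in Adn-Lpin1-/- LFD and 78668 to 104079 in Adn-Lpin1-/- HFD mice.

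Markers of other liver cells moved with the genotype. Averaged over the diets, 7 of 10 stellate cell markers, 7 of 9 macrophage markers and all 6 endothelial markers were called higher in Adn-Lpin1-/- mice, whereas 4 of 8 hepatocyte markers were called lower and 1 higher. Among all genes 17.1% were called higher in that comparison and 15.8% lower. Stellate markers summed to between 92.1 and 182 CPM in WT LFD and 160 and 241 in WT HFD mice, and to between 197 and 471 in Adn-Lpin1-/- LFD and 195 and 483 in Adn-Lpin1-/- HFD mice. In the same order of groups, macrophage markers summed to 84.8 to 155, 104 to 128, 111 to 210 and 138 to 307 CPM, and endothelial markers to 67.2 to 112, 84.3 to 124, 96.8 to 173 and 130 to 154. No marker of these 3 lists was at 0 in all mice of a group. Of 6 adipocyte markers only Cidea and Cfd, which fatty hepatocytes can also express, passed the limit on low counts, and both were called higher on both diets. Adipoq, the defining adipocyte gene, ranged from 0 to 4.32 CPM in WT LFD and from 0 to 0.154 in Adn-Lpin1-/- LFD, and Lep, Plin1 and Retn reached at most 0.116 CPM in any mouse. Of the mesothelial, blood and acinar pancreas markers, 4 of 5, 5 of 7 and 1 of 5 were tested, and with the diets averaged 1 mesothelial marker was called higher, 0 blood markers were called and the 1 acinar marker was called lower. In bulk tissue, a change in the share of a cell type and a change in RNA per cell cannot be told apart. The part of cell composition in the results below was not tested.

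The 9 genes spanned more than 2 orders of magnitude in level. On the scale of CPM per kb of exon, which allows genes to be compared, Fetub was highest with a mean level of 264 over the 20 mice (range 185 to 377), and Lect2 followed with 127 (97.8 to 166). Angptl4 (54.8, range 39.3 to 73.6), Inhbe (41.9, range 23 to 60.6) and Angptl8 (33.4, range 12.2 to 75.8) formed a middle group with overlapping ranges. Enho (6.76), Fgf21 (4.24), Gdf15 (2.99) and Fst (1.19) were low, again with overlapping ranges, and the highest Enho mouse (31.0) reached into the range of Angptl8 and Inhbe. Fetub did not overlap Lect2 and Lect2 did not overlap Angptl4, so these steps in the order exceeded the spread between mice. The ratio of the highest to the lowest mouse was smallest for Lect2 (1.70), Angptl4 (1.87) and Fetub (2.03), and largest for Enho (28.4) and Fst (14.9).

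**Figure D1:**
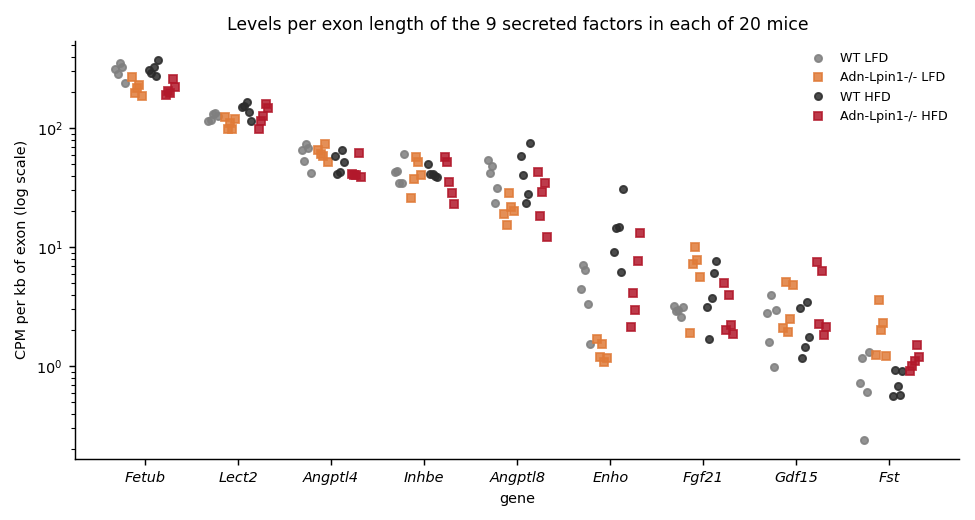
CPM per kb of exon on a log axis for the 9 genes, ordered by mean, with 1 point per mouse and the 4 groups side by side. Fetub lies highest, between 185 and 377, and Enho spreads most, with its highest mouse at 28.4 times its lowest.

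Fetub was lower in Adn-Lpin1-/- livers on both diets. Enho was lower on both diets too, though its HFD call was close to the threshold (adjusted p = 0.0491 in edgeR). Fst was higher on the LFD and with the diets averaged. Angptl8 was lower when the genotypes were compared over both diets together. On the HFD Enho was higher than on the LFD in Adn-Lpin1-/- mice, and no other member was called for diet. Fgf21, Gdf15, Angptl4, Inhbe and Lect2 passed the test in no comparison.

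Calls were made at an adjusted p of at most 0.05 in the quasi-likelihood test of edgeR, adjusted by the Benjamini-Hochberg method over all 13052 genes. On the LFD 3 of the 9 members were called for genotype, 1 higher and 2 lower, where 14.4% of all genes were called (6.27% higher, 8.11% lower). On the HFD 2 of 9 were called, both lower, where 18.6% of all genes were called (9.87% higher, 8.78% lower). With both diets averaged, 4 of 9 were called, 1 higher and 3 lower, against 32.9% of all genes (17.1% higher, 15.8% lower). With so few members, these counts were not tested against the shares of all genes, and the results concern single genes.

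For diet, 0 of 9 members were called in WT mice, where 1.1% of all genes were called by edgeR, and 1 of 9 in Adn-Lpin1-/- mice, where 2.46% were called. Before adjustment, 1 member had p under 0.05 in WT mice, and DESeq2 called 1 member, voom with quality weights 0. With genotypes averaged, 1 of 9 was called, higher, against 7.26% of all genes (3.55% higher, 3.72% lower). For the interaction of genotype with diet, edgeR called 0% of genes and 0 members. There, 938 genes and 1 member had an unadjusted p under 0.05, DESeq2 called 30 genes, voom with quality weights 0 and voom with the pools added 189, none of them members.

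The median log2 fold change of the 9 members for genotype was -0.026 under the LFD and -0.22 under the HFD, beside 0.0065 and 0.0023 for all genes tested. The 4 comparisons of a single factor share groups with each other, so that a low or high group enters 2 of them. No 2 groups of 5 mice were fully separate except in 2 cases: Fetub between genotypes on the HFD, where 11.4% of all genes were separate, and Enho between diets in Adn-Lpin1-/- mice, where 4.06% were. On the LFD 10.1% of genes were separate between genotypes, and 3.73% between diets in WT mice, in each case with 0 members.

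**Figure D2:**
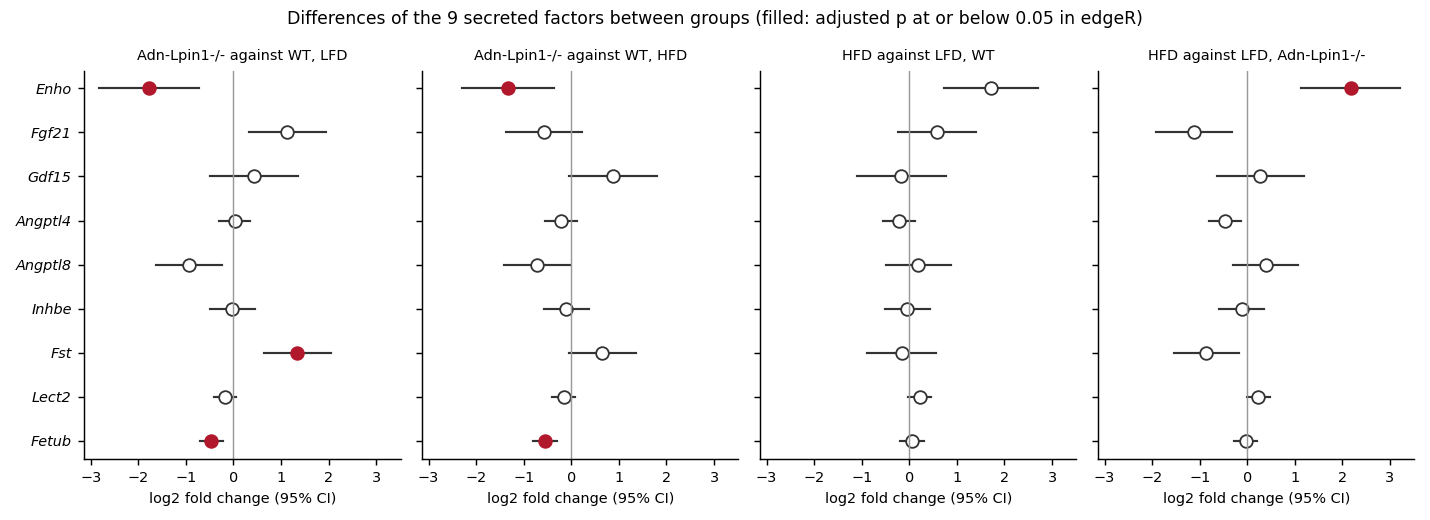
Log2 fold change of each gene with its 95% confidence interval in 4 comparisons, genotype on each diet and diet in each genotype, with filled points where edgeR's adjusted p was at or below 0.05. Enho is filled in 3 panels, Fetub in 2 and Fst in 1.

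**Figure D3:**
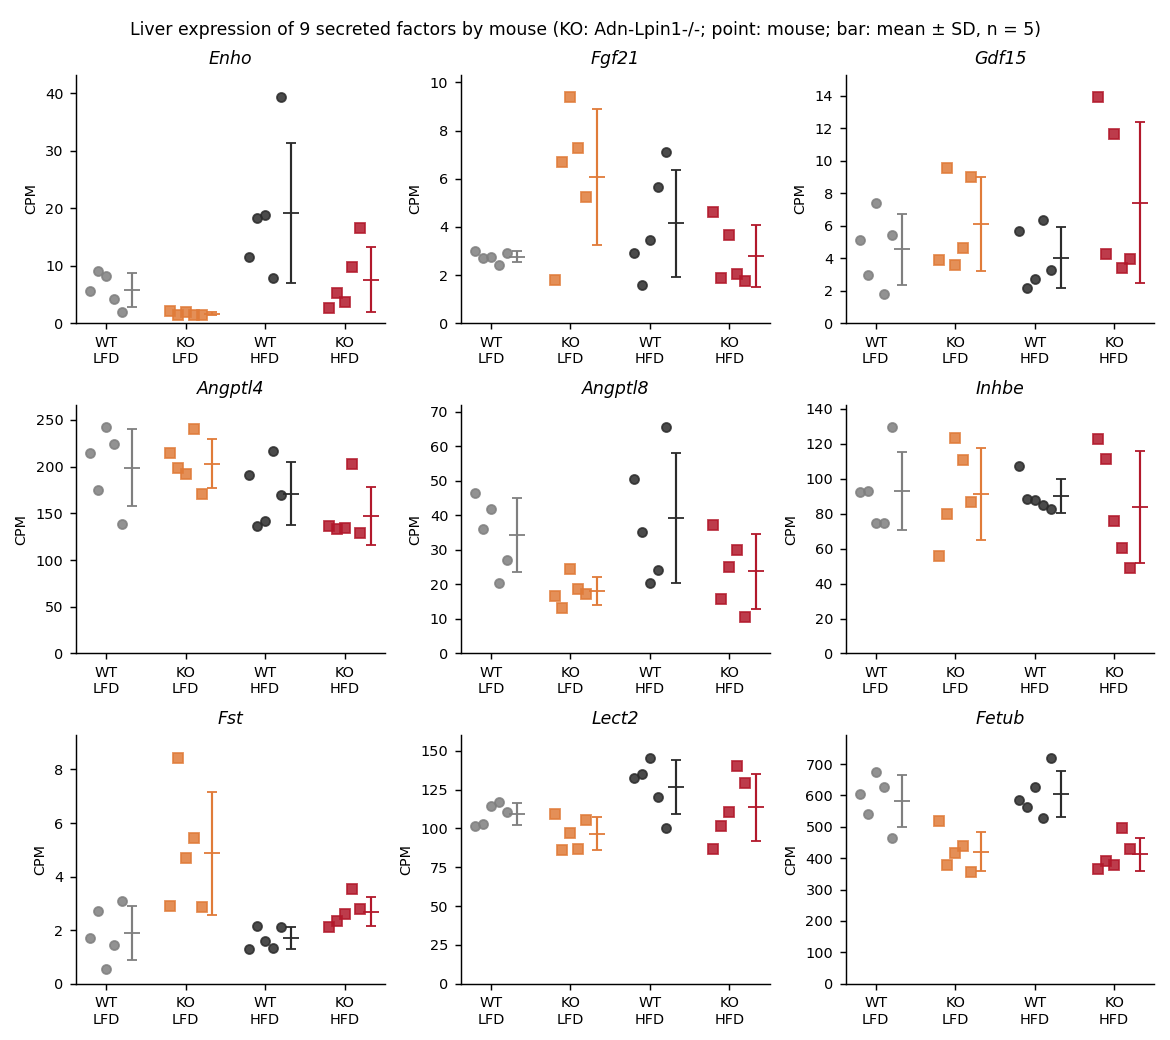
CPM of each gene in each of the 20 mice by group, on axes that start at 0, with the mean and SD of 5 mice beside the points. Enho in Adn-Lpin1-/- LFD lies between 1.38 and 2.14 CPM in all 5 mice, while the other groups spread widely.

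Enho encodes adropin, a peptide secreted by liver and brain that has been linked to glucose and fat oxidation. The gene (ENSMUSG00000028445) lies at chr4:41638144-41640324 on the minus strand of GRCm38. In WT LFD, Enho was at 5.61, 9.09, 8.19, 4.22 and 1.95 CPM in mice 1 to 5. In Adn-Lpin1-/- LFD it was at 2.14, 1.5, 1.94, 1.38 and 1.48 CPM. Thus 4 of the 5 Adn-Lpin1-/- mice lay below every WT mouse, and the groups overlapped only through WT mouse 5. In WT HFD, Enho was at 11.5, 18.3, 18.8, 7.91 and 39.4 CPM, and in Adn-Lpin1-/- HFD at 2.70, 5.20, 3.74, 9.79 and 16.6 CPM. Here 3 of 5 Adn-Lpin1-/- mice lay below every WT mouse, and mice 4 and 5 fell within the WT range.

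The Enho level in Adn-Lpin1-/- mice was 0.291 times the WT level on the LFD (log2 fold change -1.78 ± 0.50 SE, adjusted p = 0.0230 in edgeR). On the HFD it was 0.397 times the WT level (-1.33 ± 0.46, adjusted p = 0.0491 in edgeR), and over both diets 0.340 times (-1.56 ± 0.34, adjusted p = 0.00186). Enho was 4.50-fold higher on the HFD than on the LFD in Adn-Lpin1-/- mice (log2 2.17 ± 0.50, adjusted p = 0.0256 in edgeR) and 3.86-fold higher with genotypes averaged (1.95 ± 0.34, adjusted p = 0.00191). In WT mice alone the fold was 3.30, which did not pass (log2 1.72 ± 0.47, adjusted p = 0.0782 in edgeR), although DESeq2 called it (adjusted p = 0.0309). The genotype effects under LFD and HFD differed by 0.45 ± 0.67 on the log2 scale (95% interval -0.95 to 1.85, adjusted p = 0.939), which was not resolved from 0.

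Exact two-sided permutation tests of the mean log2 CPM, 5 mice against 5, gave for Enho an unadjusted genotype p of 0.0159 in LFD and 0.0556 in HFD mice. For diet the exact p was 0.0238 in WT and 0.00794 in Adn-Lpin1-/- mice, the latter the smallest that 5 mice against 5 allow. Over all members and comparisons 36 such exact tests were made, of which 11 had p under 0.05 and 0 passed when adjusted over the 36. The HFD call of Enho is close to the threshold: it was lost without any 1 of 14 mice, with the log2 fold change at -0.90 without mouse 5 of WT HFD (adjusted p = 0.176 in edgeR). Under voom with quality weights the LFD call was lost (-1.73, adjusted p = 0.0838), and so was the diet call in Adn-Lpin1-/- mice (1.85, adjusted p = 0.148). The exons of Enho share 15 bases with Dnaic1 on the opposite strand, and the strand setting of the counting is not given in the sources used here. Gpr19, which encodes a proposed adropin receptor, was at a mean of 4.86 CPM in WT LFD and 4.2 in Adn-Lpin1-/- LFD (log2 fold change -0.21, adjusted p = 0.354 in edgeR).

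The genes whose log2 CPM followed Enho most closely over the 20 mice were Nfix, Ces1b and Aadat (Pearson r 0.904, 0.901 and 0.897). Nfix encodes a transcription factor of the nuclear factor I family, Ces1b a liver carboxylesterase, and Aadat a mitochondrial aminotransferase of the kynurenine and lysine pathways. With group means removed, r was 0.699, 0.694 and 0.861, the highest for Aadat. Library depth differed between the mice, and mice of a group share genotype and diet. These values are descriptions of the most alike genes among 11827 protein-coding genes.

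Fgf21 encodes a fasting and stress hormone that acts on adipose tissue and brain. It lies at chr7:45613907-45615490 on the minus strand (ENSMUSG00000030827). WT LFD mice were close together at 3.01, 2.70, 2.77, 2.42 and 2.91 CPM. Adn-Lpin1-/- LFD mice were at 1.78, 6.69, 9.39, 7.27 and 5.23 CPM, so that 4 of 5 were above every WT mouse and mouse 1 was below all of them. WT HFD mice were at 2.94, 1.58, 3.46, 5.68 and 7.12 CPM. Adn-Lpin1-/- HFD mice were at 4.64, 1.89, 3.67, 2.05 and 1.74 CPM, and the 2 HFD groups overlapped throughout.

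The mean Fgf21 level on the LFD was 2.76 ± 0.22 CPM in WT and 6.07 ± 2.83 CPM in Adn-Lpin1-/- mice (SD, n = 5). The log2 fold change of 1.14 ± 0.39 missed the threshold (adjusted p = 0.0567 in edgeR), as did that of -0.57 ± 0.38 on the HFD (adjusted p = 0.317). DESeq2 called the LFD difference (adjusted p = 0.0175), and without mouse 1 of Adn-Lpin1-/- LFD edgeR did too (log2 fold change 1.37, adjusted p = 0.0129). The genotype effect differed between the diets by -1.71 ± 0.55 on the log2 scale (95% interval -2.85 to -0.56, unadjusted p = 0.00551 and adjusted p = 0.518 in edgeR), which does not pass over all genes. On the HFD compared with the LFD, Adn-Lpin1-/- mice had a log2 fold change of -1.12 ± 0.38 (adjusted p = 0.141) and WT mice 0.59 ± 0.39 (adjusted p = 0.493).

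FGF21 signals through FGF receptors bound to the co-receptor β-klotho, encoded by Klb. Of 7 genes for the receptors, co-receptor and processing enzyme and for the GDF15 receptor, 5 were tested, and 0 were called on either diet. Among all genes 14.4% were called on the LFD, 18.6% on the HFD and 32.9% with the diets averaged. Klb was called lower with the diets averaged (log2 fold change -0.32 ± 0.09, adjusted p = 0.0139 in edgeR), from a mean of 28.3 to 22.8 CPM in LFD mice and from 31.6 to 25.2 CPM in HFD mice. Fgfr4, the main FGF receptor of hepatocytes, had a log2 fold change of -0.15 (adjusted p = 0.157), and Fgfr1, which pairs with β-klotho in adipose tissue, one of -0.15 (adjusted p = 0.494). The median of the 5 was -0.15, beside 0.0033 for all genes. The genes most like Fgf21 over the 20 mice were Arsg, a lysosomal sulfatase gene (r = 0.744), Tspan31 (0.724) and the sialyltransferase gene St3gal3 (0.709).

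Gdf15 encodes a cytokine of the TGF-β superfamily that cells release under stress and that lowers appetite through the hindbrain receptor GFRAL. It lies at chr8:70629393-70632456 on the minus strand (ENSMUSG00000038508). WT LFD mice were at 5.15, 2.97, 7.42, 1.82 and 5.45 CPM and Adn-Lpin1-/- LFD mice at 3.90, 9.55, 3.62, 4.61 and 9.0 CPM. WT HFD mice were at 5.71, 2.18, 2.70, 6.37 and 3.29 CPM and Adn-Lpin1-/- HFD mice at 13.9, 4.23, 11.6, 3.38 and 3.95 CPM. The groups overlapped on both diets, and in Adn-Lpin1-/- HFD mice 1 and 3 stood above the other three.

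The genotype log2 fold change of Gdf15 was 0.43 ± 0.45 in LFD mice (adjusted p = 0.557 in edgeR) and 0.88 ± 0.44 in HFD mice (adjusted p = 0.174). Averaged over the diets it was 0.65 ± 0.32, with a 95% interval of -0.0025 to 1.31 (adjusted p = 0.117). Gfral had 0 CPM in all 20 livers. The genes most like Gdf15 over the mice were Epcam (r = 0.805), Lamc3 (0.805), which encodes a laminin chain, and Ptpn14 (0.791). Epcam is a cholangiocyte marker, and the 5 cholangiocyte markers summed to 22.6 to 50.5 CPM in WT LFD and 14.3 to 39.1 in WT HFD mice, and to 34.0 to 82.6 in Adn-Lpin1-/- LFD and 26.1 to 57.8 in Adn-Lpin1-/- HFD mice. On each diet 0 of the 5 were called for genotype, and 2 were called higher with the diets averaged. None was at 0 in all mice of a group, and their part in the Gdf15 values was not tested.

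Fgf21 and Gdf15 are both targets of the integrated stress response, in which kinases phosphorylate eIF2α and raise translation of ATF4. Of 19 genes of this response, 16 were tested. On the LFD 1 was called higher for genotype (14.4% of all genes called), and on the HFD 2 higher and 1 lower (18.6%). With the diets averaged 5 were called higher and 0 lower (32.9%), with a median log2 fold change of 0.092. The 4 with the smallest adjusted p were Atf3 (1.36 ± 0.25, adjusted p = 0.0005 in edgeR), Nupr1 (0.72), Eif2ak3 (0.37) and Sesn2 (0.55). Atf3 and Nupr1 encode stress-induced transcriptional regulators, Eif2ak3 the endoplasmic reticulum kinase PERK, and Sesn2 the nutrient sensor sestrin 2. Atf4 itself had a log2 fold change of -0.19 (adjusted p = 0.0603). Asns, the asparagine synthetase gene and a target of ATF4, was the gene called lower on the HFD (-2.29, adjusted p = 0.0180).

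PPARα, the fatty acid receptor of hepatocytes, controls Fgf21 and Angptl4. Of its 18 listed targets, all tested, 2 were called higher for genotype on the LFD (14.4% of all genes called). On the HFD 1 was called higher and 1 lower (18.6%), and with the diets averaged 3 higher and 1 lower (32.9%). The called genes were Pdk4, a kinase that spares pyruvate (log2 fold change 1.99 ± 0.41, adjusted p = 0.00104 in edgeR), Vnn1, a pantetheinase (1.01), Acot2, a mitochondrial thioesterase (0.77), and Creb3l3, which encodes a liver transcription factor that also drives Fgf21 (-0.20). The list median was 0.13 with the diets averaged, 0.22 on the LFD and 0.095 on the HFD, beside 0.0033, 0.0065 and 0.0023 for all genes. Of the 18 targets, 16 lay above 0 in log2 fold change on the LFD and 11 on the HFD.

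Angptl4 and Angptl8 encode inhibitors of lipoprotein lipase, the enzyme that releases fatty acids from circulating triglyceride. ANGPTL4 rises with fasting, and ANGPTL8 rises with feeding. Angptl4 (ENSMUSG00000002289) lies at chr17:33773750-33781575 on the minus strand, and Angptl8 (ENSMUSG00000047822) at chr9:21835510-21837346 on the plus strand, inside the span of Dock6 on the opposite strand with which it shares no exon bases.

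Angptl8 was at 46.6, 36.1, 41.9, 20.4 and 27.2 CPM in WT LFD and at 16.6, 13.2, 24.6, 18.8 and 17.3 CPM in Adn-Lpin1-/- LFD. Of the Adn-Lpin1-/- mice 4 of 5 lay below every WT mouse. It was at 50.6, 35.1, 20.4, 24.1 and 65.5 CPM in WT HFD and at 37.4, 15.8, 25.0, 30.1 and 10.5 CPM in Adn-Lpin1-/- HFD, where 2 of 5 lay below every WT mouse. With the diets averaged Angptl8 was at 0.565 times the WT level (log2 fold change -0.82 ± 0.23, adjusted p = 0.0104 in edgeR), a call that held without each mouse in turn. On single diets it did not pass, at -0.93 ± 0.33 under the LFD (adjusted p = 0.0666) and -0.72 ± 0.33 under the HFD (adjusted p = 0.129). DESeq2 called the LFD difference (adjusted p = 0.0485). For diet, with genotypes averaged, the log2 fold change of 0.29 did not pass (95% interval -0.20 to 0.77, adjusted p = 0.499).

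Angptl4 was at 215, 174, 242, 225 and 139 CPM in WT LFD and at 214, 198, 192, 240 and 171 CPM in Adn-Lpin1-/- LFD. It was at 191, 137, 142, 216 and 170 CPM in WT HFD and at 136, 134, 134, 203 and 129 CPM in Adn-Lpin1-/- HFD, where 4 mice were close together and mouse 4 was apart. The genotypes overlapped on both diets, with log2 fold changes of 0.031 ± 0.16 for the LFD (adjusted p = 0.927 in edgeR) and -0.22 ± 0.16 for the HFD (adjusted p = 0.354). The HFD went with lower Angptl4 when genotypes were averaged, at 0.789 times the LFD level, which missed the threshold (-0.34 ± 0.11, adjusted p = 0.0667). DESeq2 and voom called this difference (adjusted p = 0.0275 and 0.0238), and so did edgeR when Adn-Lpin1-/- HFD mouse 4 was left out (-0.42, adjusted p = 0.0165).

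Of 12 other genes of the lipoprotein lipase system, 1 was called higher and 1 lower for genotype on the LFD (14.4% of all genes called). On the HFD 2 were called higher and 1 lower (18.6%), and with the diets averaged 3 higher and 2 lower (32.9%). The median log2 fold change of the 12 genes, diets averaged, was 0.040. Lipc, hepatic lipase, was lower (-0.34 ± 0.08, adjusted p = 0.00232 in edgeR). Gpihbp1, which carries lipoprotein lipase to the capillary wall, was higher (0.57), as were Pcsk6, a proprotein convertase (0.37), and Apoc2, the lipase activator (0.33). Gpihbp1 is made by endothelial cells, whose markers were higher too, as given above. The part of these cells in the Gpihbp1 result was not tested. Lpl had a log2 fold change of 0.11 (adjusted p = 0.601).

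The genes most like Angptl8 over the mice were Dyrk1a, a kinase gene (r = 0.857), Mrps9 (0.787) and Clcc1 (0.770). With group means removed, r was 0.782, 0.624 and 0.634. The genes most like Angptl4 were Etnk2, an ethanolamine kinase gene (0.832), Hook2 (0.828) and Marc1 (0.821), and these r were 0.739, 0.780 and 0.71 with group means removed.

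Inhbe encodes the subunit of activin E, a hepatokine that restrains lipolysis in adipocytes, and Fst encodes follistatin, which binds and blocks activins. Inhbe (ENSMUSG00000047492) lies at chr10:127349402-127351772 and Fst (ENSMUSG00000021765) at chr13:114452262-114458730, both on the minus strand. Fst was higher in Adn-Lpin1-/- livers on the LFD and with the diets averaged, and Inhbe differed in no comparison beyond the spread between mice.

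Fst was at 1.70, 2.72, 0.566, 1.43 and 3.08 CPM in WT LFD and at 2.92, 8.45, 4.70, 5.44 and 2.85 CPM in Adn-Lpin1-/- LFD, where 3 of 5 mice lay above every WT mouse. It was at 1.31, 2.17, 1.59, 1.35 and 2.12 CPM in WT HFD and at 2.13, 2.34, 2.60, 3.54 and 2.79 CPM in Adn-Lpin1-/- HFD, where 4 of 5 lay above every WT mouse. The LFD difference was 2.54-fold (log2 1.35 ± 0.34, adjusted p = 0.0124 in edgeR) and held without each mouse in turn. On the HFD it was 1.57-fold and was not called (0.65 ± 0.34, adjusted p = 0.187), although the fit of only the HFD groups called it (adjusted p = 0.0478 in edgeR). The exact permutation p was 0.0159 there and 0.0317 on the LFD. With the diets averaged the fold was 2.00 (1.00 ± 0.24, adjusted p = 0.00364). Its genotype effects under LFD and HFD were not shown to differ (-0.70 ± 0.48, 95% interval -1.69 to 0.30, adjusted p = 0.825). Fst is the least abundant member, with counts from 19 in a WT LFD mouse to 438, so counting error adds to its spread. On the LFD 7 of 10 stellate and 3 of 6 endothelial markers were called higher for genotype, where 6.27% of all genes were. The part of these cell types in the Fst result was not tested.

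Inhbe was at 92.5, 92.8, 74.6, 74.8 and 129 CPM in WT LFD, and at 55.5, 80.0, 123, 111 and 86.6 CPM in Adn-Lpin1-/- LFD. It was at 107, 88.5, 87.6, 84.7 and 82.7 CPM in WT HFD and at 123, 111, 76.1, 60.4 and 49.1 CPM in Adn-Lpin1-/- HFD. On the LFD the groups overlapped. On the HFD the Adn-Lpin1-/- mice spread on both sides of the WT mice, 2 above and 3 below all of them. With the diets averaged the log2 fold change for genotype was -0.064 ± 0.16, with a 95% interval of -0.40 to 0.27 (adjusted p = 0.793 in edgeR). The interval for diet, genotypes averaged, was -0.42 to 0.26.

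Of the 17 other genes of the activin and follistatin pathway, 14 were tested. On the LFD 1 was called higher and 3 lower for genotype (14.4% of all genes called), and on the HFD 0 higher and 3 lower (18.6%). With the diets averaged 2 were called higher and 5 lower (32.9%), with a median log2 fold change of -0.11. Acvr2a, an activin type II receptor, was lower on both diets (-0.54 ± 0.06 averaged, adjusted p = 4.2e-06 in edgeR), from a mean of 19 to 13.3 CPM in LFD mice and from 19.1 to 12.8 CPM in HFD mice. Inhba, the activin A subunit that follistatin binds, was lower on both diets too (-1.18), from 7.69 to 3.13 CPM in LFD mice and from 6.05 to 2.88 CPM in HFD mice. Acvr2b, the other type II receptor (-0.73), and Smad4, the shared signal transducer (-0.20), were lower with the diets averaged. The called genes in the upward direction were Fstl1, a follistatin-like glycoprotein gene (0.71), and Inhbb, the activin B subunit (0.95). Inhbc, the gene next in family to Inhbe, had a log2 fold change of -0.11 (adjusted p = 0.461). Acvr1c, the ALK7 receptor through which activin E acts on adipocytes, averaged at most 0.032 CPM in any group and was below the limit for testing.

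The genes most like Fst over the mice were Zfp334 (r = 0.790), Obsl1 (0.787) and Smarcd3 (0.781). Those most like Inhbe were Sowahb (0.798), Vti1a (0.797) and Hfe2 (0.778). With group means removed, r was 0.803, 0.602 and 0.617 for the Fst genes and 0.803, 0.823 and 0.778 for the Inhbe genes. Hfe2 encodes hemojuvelin, a co-receptor for bone morphogenetic proteins.

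Lect2 and Fetub are abundant hepatocyte products. LECT2 was found as a chemotactic factor for leukocytes and binds the receptors MET and TIE1, and fetuin B is a protease inhibitor of the cystatin superfamily. Lect2 (ENSMUSG00000021539) lies at chr13:56542460-56548538 on the minus strand and Fetub (ENSMUSG00000022871) at chr16:22918382-22939766 on the plus strand.

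Fetub was at 605, 542, 674, 626 and 463 CPM in WT LFD and at 518, 378, 416, 439 and 354 CPM in Adn-Lpin1-/- LFD, where 4 of 5 mice lay below every WT mouse. It was at 586, 562, 628, 527 and 721 CPM in WT HFD and at 366, 392, 377, 498 and 428 CPM in Adn-Lpin1-/- HFD, where all 5 lay below every WT mouse. The level in Adn-Lpin1-/- mice was 0.724 times that of WT on the LFD (log2 fold change -0.47 ± 0.12, adjusted p = 0.0120 in edgeR) and 0.681 times on the HFD (-0.55 ± 0.12, adjusted p = 0.00381). The exact permutation p was 0.0159 for LFD and 0.00794 for HFD mice. Both calls held without each mouse in turn and under each alternative run. Diet left Fetub at 1.01 times its level with genotypes averaged (95% interval of the log2 fold change -0.16 to 0.19). Of 8 hepatocyte markers, 1 was called lower and 0 higher under the LFD, with 3 of 8 above 0 in log2 fold change, and 3 were called lower and 0 higher under the HFD, with 2 of 8 above 0. Among all genes 8.11% were called lower under the LFD and 8.78% under the HFD. The part of hepatocyte content was not tested.

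Lect2 was at 101, 103, 115, 117 and 111 CPM in WT LFD and at 109, 85.8, 97.0, 86.4 and 105 CPM in Adn-Lpin1-/- LFD. It was at 132, 135, 146, 121 and 100.05 CPM in WT HFD and at 86.5, 102, 110, 140 and 130 CPM in Adn-Lpin1-/- HFD. The groups overlapped on both diets, and the differences were small, with log2 fold changes of -0.18 ± 0.12 for the LFD (adjusted p = 0.334 in edgeR) and -0.16 ± 0.12 for the HFD (adjusted p = 0.357). With the diets averaged, Lect2 was at -0.17 ± 0.08 for genotype (adjusted p = 0.123) and, with the genotypes averaged, at 0.22 ± 0.08 for diet (adjusted p = 0.103). Voom with quality weights called both (adjusted p = 0.0297 and 0.0403).

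Of 9 genes for receptors and relatives of LECT2, fetuins and adropin, 8 were tested. On the LFD 3 were called higher and 3 lower for genotype (14.4% of all genes called), and on the HFD 2 higher and 3 lower (18.6%). With the diets averaged 3 were called higher and 4 lower (32.9%). Met, the hepatocyte growth factor receptor that LECT2 binds, was lower on both diets (log2 fold change -0.56 ± 0.08 averaged, adjusted p = 5.2e-05 in edgeR), from 75.6 to 48.8 CPM in LFD mice and from 86.0 to 61.5 CPM in HFD mice. Tie1, the endothelial receptor for LECT2, was higher (0.48), as were the endothelial markers, whose part in the Tie1 result was not tested. Insr, the insulin receptor that fetuins can inhibit, was lower (-0.42), and so was Ahsg, which encodes fetuin A, the closest relative of fetuin B (-0.46, adjusted p = 0.00476). Mean Ahsg went from 9389.6 to 7207 CPM in LFD mice and from 9688 to 6647 CPM in HFD mice. Kng1, a kininogen of the cystatin superfamily, moved the other way (0.39, adjusted p = 0.000683).

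The genes most like Fetub over the mice were Ang (r = 0.957), Rnase4 (0.954) and Plg (0.951). Ang and Rnase4 encode secreted ribonucleases, and Plg encodes plasminogen, so that all are secreted liver proteins. Within groups r was 0.874, 0.855 and 0.871. The genes most like Lect2 were Adtrp (0.869), Smarcd2 (0.846) and Cyp2c50 (0.815).

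Of 20 other liver-secreted metabolic factors, all tested, 1 was called higher and 2 lower for genotype on the LFD (14.4% of all genes called). On the HFD 1 was called higher and 4 lower (18.6%), and with the diets averaged 4 higher and 9 lower (32.9%). Their median log2 fold change was -0.11. Igfbp2, an insulin-like growth factor binding protein gene, was lower on both diets (-1.02 ± 0.19, adjusted p = 0.000433 in edgeR), from 510 to 264 CPM in LFD mice and from 414 to 194 CPM in HFD mice. Gpnmb, a glycoprotein made by lipid-laden macrophages and also a macrophage marker here, was higher (2.79). Fgl1, a hepatocyte-derived ligand of an immune checkpoint, was lower (-0.79), and Rbp4, the plasma carrier of retinol, was lower (-0.24).

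**Figure D4:**
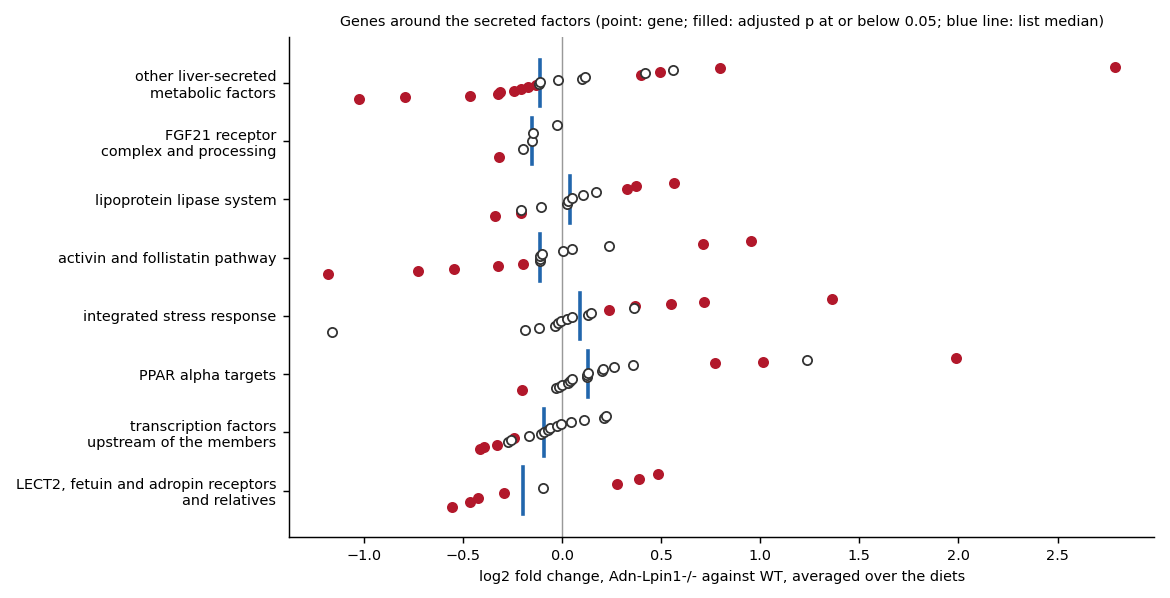
Log2 fold change for genotype, averaged over the diets, of every tested gene in 8 lists of genes around the secreted factors, with filled points where edgeR's adjusted p was at or below 0.05 and a blue line at the list median. Medians lie between -0.20 and 0.13, and called genes lie on both sides of 0 in 5 of the 8 lists.

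Of 17 transcription factors that act upstream of the members, 0 were called higher and 2 lower for genotype under the LFD (8.11% of all genes lower). Under the HFD 0 were called higher and 3 lower (8.78%), and with the diets averaged 0 higher and 4 lower (15.8%). The median log2 fold change of the 17, diets averaged, was -0.093. The called genes were Nr3c1, the glucocorticoid receptor (-0.42 ± 0.05, adjusted p = 1.15e-05 in edgeR), Nr1d2, the clock repressor REV-ERBβ (-0.39), Rora, the clock activator RORα (-0.33), and Nr1h4, the bile acid receptor FXR (-0.24). Ppara had a log2 fold change of -0.027 (adjusted p = 0.901).

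Members were compared with each other across mice of the same group. After the group mean was removed from log2 CPM, Enho and Fetub correlated over the 20 mice with Pearson r = 0.686 (permutation p = 0.00129) and Spearman rho = 0.624 (permutation p = 0.00568). Of 36 pairs of members tested, this was the only one to pass on r (adjusted p = 0.0464), and 0 passed on rho (adjusted p = 0.104 for Enho and Fetub). Without the 2 mice farthest from the median of Enho, r was 0.665. On variance-stabilized counts r was 0.651 and did not pass (adjusted p = 0.0799), and it did not pass in 13 of the 20 fits without a mouse. The next pairs, Enho with Inhbe (r = -0.613) and Fgf21 with Lect2 (r = -0.649), both had an adjusted permutation p of 0.0840.

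**Figure D5:**
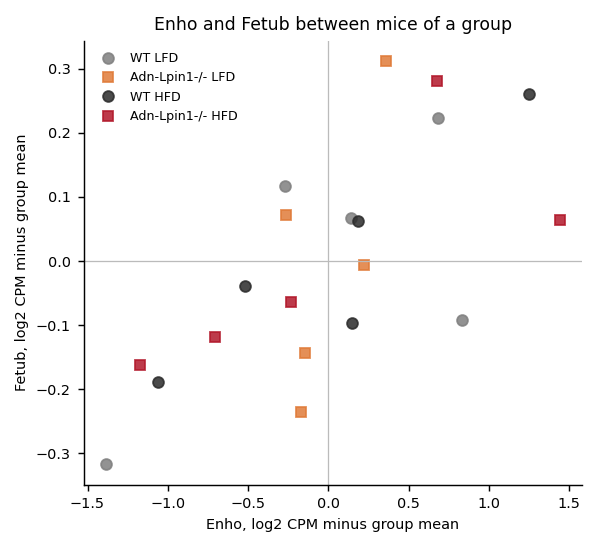
Deviation of each mouse from its group mean in log2 CPM, Enho on the horizontal and Fetub on the vertical axis, with 1 point per mouse and colours for the 4 groups. Mice with high Enho for their group tend to have high Fetub, with r = 0.686 over 20 mice.

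Pooled libraries hold RNA of the same 5 mice of a group, so their levels are not independent of the single mice. In 35 of 36 cases the pool lay within the range of its 5 mice. The exception was Fgf21 in WT LFD, with 3.59 CPM in the pool and 2.42 to 3.01 in the mice.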

How the data were processed

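Liver RNA of 24 libraries, 20 of single mice and 4 of pooled RNA, was sequenced. The authors selected poly-A RNA, demultiplexed with bcl2fastq, aligned the reads to GRCm38 with STAR 2.5.1a and counted uniquely aligned reads per gene with featureCounts 1.4.6-p5 of Subread, and they deposited 1 table per library with raw counts, RPKM and CPM. The deposited CPM and RPKM were read for their range only. The raw counts were used after removal of 355 rRNA genes. Genes were tested in R 4.3.3 and edgeR 4.0.16 if 4 or more of the 20 libraries of single mice exceeded 1 CPM, which left 13052 genes (TMM scaling, 1 mean per group, quasi-likelihood test, Benjamini-Hochberg adjustment over all genes tested, threshold 0.05). CPM in the text are on TMM-scaled totals, log2 CPM have a prior count of 0.5, and fold changes are fitted. Single genes were also compared by exact permutation of 5 mice with 5, and pairs of members by 100000 permutations within groups. The other steps ran in Python 3.11.15 (matplotlib 3.10.9, pandas 2.3.3, scipy 1.17.1, numpy 2.4.6), and the scripts were tested on simulated data.

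Alternatives were DESeq2 size factors, the Wald test of DESeq2 1.42.0, voom with quality weights in limma 3.58.1 (the study's method) with and without pools, filterByExpr, no limit on low counts, a block for the replicate number, a fit restricted to the compared groups, correction of the GC trend of each library, and each mouse left out. Total counts of single mice were 36260187 to 81072794. Gene coordinates and lengths are those deposited with the counts. Gene types and GC content come from GENCODE release M21 on GRCm38, which matched 40254 gene identifiers (97.3%), and promoter windows from RefSeq. Whether replicates are separate litters is not stated, so p-values measure the spread between these mice.

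The members and the lists were chosen with earlier results of these data known. Named were every member, at most 4 called genes per list with the smallest adjusted p for genotype averaged over the diets, receptors needed to describe a member, and the 3 protein-coding genes most correlated with each member. Atf4, Asns, Ppara, Lpl, Inhbc, Fstl1, Inhbb, Ahsg and the low adipocyte markers fall outside this rule and were chosen after their values were seen. The lists comprised the members, 8 groups of related genes and 9 groups of cell type markers. The pools repeat RNA of the same mice and were left out of the main tests. Human and other mouse data of the study were not analysed here.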

Additional observations from a re-analysis of the deposited data

Results flagged for a closer look

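In 36 sets of 5 mice (9 genes in 4 groups), the highest or lowest mouse was compared with the rest by Dixon's criterion at the 95% level, which chance alone exceeds in about 1 of 20 sets. It was exceeded in 2 sets. Angptl4 was at 203 CPM in mouse 4 of Adn-Lpin1-/- HFD, with a gap to the next mouse of 0.909 of the group's range. Inhbe was at 107 CPM in mouse 1 of WT HFD, with a gap of 0.763 of the range. No cause was tested.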

How the results depend on the processing

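None of the called differences of Enho, Fst, Fetub and Angptl8 reversed its direction in an alternative; direction was not compared for differences that were not called. Counts of members called were within 1.5 times the main count except as follows. For genotype on the LFD (main count 3), DESeq2 called 5, the fit of only the 2 groups 5 and voom with pools 6. For genotype on the HFD (main count 2), voom with pools called 4, and the replicate block, alone and with the GC trend removed, 1. For diet in WT (main count 0), DESeq2 called 1 and voom with pools 2. For diet in Adn-Lpin1-/- (main count 1), voom called 0 and voom with pools 5. For diet averaged over genotypes (main count 1), DESeq2 called 2, voom 3, voom with pools 3 and the replicate block, alone and with the GC trend removed, 2. The pools count the same RNA again. Member pairs past the threshold fell from 1 to 0 on variance-stabilized counts. With each mouse left out, counts ranged from 2 to 5 for genotype on the LFD (5 without mouse 5 of WT HFD), 1 to 2 on the HFD, 0 to 2 for diet in Adn-Lpin1-/-, 1 to 2 for diet averaged and 0 to 3 for member pairs (3 without mouse 4 of WT HFD).

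Calls were lost by Enho, and calls were gained in at least 1 alternative by Fgf21, Angptl8, Angptl4, Lect2, by Gdf15 (voom with pools), by Fst (voom with pools and the fit of only the 2 groups) and, for diet in WT, by Enho (DESeq2 and voom with pools). The LFD call of Enho was lost in each of 4 fits, those lacking WT LFD mouse 2, WT LFD mouse 3, Adn-Lpin1-/- LFD mouse 2 and Adn-Lpin1-/- LFD mouse 5 (adjusted p 0.0536 to 0.0613). It lost its HFD call in 14 of 20 fits, without mouse 1, 3 or 4 of WT LFD, any mouse of Adn-Lpin1-/- LFD, mouse 2, 3 or 5 of WT HFD, or mouse 1, 2 or 3 of Adn-Lpin1-/- HFD (adjusted p 0.0503 to 0.176), and in the fit of only those groups (0.0975). Its diet call in Adn-Lpin1-/- mice was lost without mouse 2, 3 or 4 of Adn-Lpin1-/- LFD or mouse 5 of Adn-Lpin1-/- HFD (adjusted p 0.0633 to 0.0725), and with voom (0.148). Diet averaged counted 2 without mouse 5 of WT LFD, mouse 4 or 5 of WT HFD, or mouse 1 or 4 of Adn-Lpin1-/- HFD, and diet in Adn-Lpin1-/- counted 2 without mouse 1 of Adn-Lpin1-/- LFD or mouse 4 of Adn-Lpin1-/- HFD. Without mouse 1, 3 or 5 of WT LFD, mouse 1, 2, 3 or 5 of Adn-Lpin1-/- LFD, mouse 1, 3 or 5 of WT HFD, or mouse 1, 2 or 3 of Adn-Lpin1-/- HFD, 0 pairs passed. The causes were not tested.

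Groups share replicate numbers 1 to 5, which no label ties to a litter or day. Mice of the same number did not deviate together: 6 of 30 pairs of same-number mice from different groups had r over 0.1 (range -0.415 to 0.281). Only 5 of 20 mice were closest to their own number, so the replicate block is given only in this section. The block took the Enho log2 fold change on the HFD to -1.31 (adjusted p = 0.0698 in edgeR). It took that for diet in Adn-Lpin1-/- mice to 2.02 (adjusted p = 0.0578), or 2.01 with the GC trend removed (adjusted p = 0.0561). Under the block Angptl4 gained a call for diet in Adn-Lpin1-/- mice (adjusted p = 0.0454). Over all genes, the calls for genotype went from 1877 to 4163 on the LFD and from 2434 to 4740 on the HFD with voom and pools, and to 1208 when WT LFD mouse 3 and 1477 when Adn-Lpin1-/- HFD mouse 2 was left out. Those for diet in WT went from 144 to 400 (DESeq2), 670 (voom), 1938 (voom and pools), 72 (only the 2 groups) and 90 (replicate block), and ranged from 55 to 289 with each mouse left out. Those for diet in Adn-Lpin1-/- went from 321 to 577 (DESeq2), 2342 (voom and pools) and 161 (only the 2 groups), and ranged from 123 to 383. Those for diet averaged went from 948 to 1539 (voom) and 3637 (voom and pools), and those for the interaction from 0 to 30 (DESeq2) and 189 (voom and pools).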
